A study of Populus tremula x Populus alba with 7 samples.

Results

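Binding regions that 6 poplar transcription factors (TFs) had in common were described from the peak lists of 6 ChIP-seq libraries. The intervals of all lists were merged wherever they shared at least 1 bp, which gave 5498 merged regions, 5369 of them on the 19 chromosomes and 129 on unplaced scaffolds. The 476 common regions described here were selected on peak position: each lies on a chromosome and holds at least 1 peak of every list. They make up 8.87% of the 5369 chromosomal regions, and since the rule itself uses the peak calls, the count is a description with no test. Chromosomal regions with peaks of 5, 4, 3, 2 and 1 lists numbered 37, 39, 238, 527 and 4052. Of the 4052 regions of 1 list, 3931 held peaks of PtrARF5a only. The share of 8.87% therefore depends largely on the length of that list.

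The libraries were made to ask which further sites are bound by TFs that act on PtrPARVUS2, a gene for a glycosyltransferase of hemicellulose synthesis. PtrC2H2ZF1, PtrC2H2ZF2, PtrARF5a, PtrBLH, PtrNAC127 and PtrCORONA were each fused to GFP, placed behind the constitutive 35S promoter and expressed transiently, after infiltration with Agrobacterium, in leaves of 1 clone of Populus tremula × Populus alba. Leaves were cross-linked with 1% formaldehyde for 15 min at 25 °C, chromatin was precipitated with a GFP antibody, and chromatin taken without the antibody step served as the input. There was 1 library for each TF and 1 input sample, whose own signal was not analysed here. All groups share the host clone, the leaf tissue and the promoter, so the lists describe an overexpressed fusion protein in leaf and not the native protein in wood. The lists come from 1 library each and were called against the same kind of control chromatin. Sites taken up with any GFP fusion therefore cannot be told apart from sites that each TF binds, and no library of GFP alone was analysed here. Peak lists carry no expression values, so the tissue label could not be checked against marker genes.

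The TFs come from different families. C2H2 zinc finger proteins read DNA through small zinc-bound folds, auxin response factors (ARFs) act at auxin-responsive genes, BEL1-like homeodomain (BLH) proteins usually work as partners of KNOX proteins, NAC proteins include the master switches of secondary wall formation, and CORONA belongs to the class III HD-ZIP proteins that pattern vascular tissue. In ChIP-seq, a protein cross-linked to DNA, directly or through a partner, pulls down the surrounding fragments, and their pile-up forms a peak whose highest point, the summit, lies near the site of contact. Peaks of several TFs at 1 place show that fragments of that DNA were recovered in each precipitation, and peak lists do not say whether the proteins were there together, one after another or in different cells.

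The common regions were short and uniform for the most part. Their length was 503 bp at the lowest, 583.5 bp at the median and 8688 bp at the highest, and 259 of 476 (54.4%, exact 95% binomial interval 49.8 to 59.0%) measured 500 to 600 bp. Such intervals cover counting error only, and neighbouring regions are not independent. A stretch covered by peaks of all 6 lists, called the core here, was present in 476 of 476 regions (lower bound 99.2%), although the merging rule did not require one. The core measured 89 bp at the lowest, 327.5 bp at the median and 7995 bp at the highest, and took up a median of 55.8% of its region. Regions over 1 kb numbered 40, and 12 of these were over 2 kb. Those 12 held 54062 of 362214 bp, or 14.9% of all sequence in the common regions.

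The regions held 2915 peaks. Exactly 1 peak of each list was found in 452 of 476 regions (94.96%, interval 92.6 to 96.7%), so nearly every region was a stack of 6 single peaks. In the remaining 24, PtrARF5a always had more than 1 peak, and in 17 of them it was the only list that did. The PtrBLH list had more than 1 peak in 6 of these regions, PtrNAC127 in 5, PtrC2H2ZF1 and PtrC2H2ZF2 in 4 each, and PtrCORONA in 3. The region with most peaks had 18 and lay on chromosome 13 from 9588836 to 9593118.

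Peaks of the 6 lists stood nearly on top of each other. The span, which is the distance between the outermost of the 6 summits, was 1 bp at the lowest, 23 bp at the median and 6311 bp at the highest over the 476 regions. Where a list had several peaks in a region, the summit of the peak with the largest −log10 q was taken, the q-value being the caller's p-value after correction for multiple testing. In the 452 regions with 1 peak of each list the median span was 22 bp, and all 6 summits lay within 25 bp in 257 (56.9%, interval 52.1 to 61.5%), within 50 bp in 360 (79.6%, 75.6 to 83.3%) and within 100 bp in 412 (91.2%, 88.1 to 93.6%). The median of the 6 summits lay a median of 8 bp from the midpoint of the region. Peaks that must overlap leave limited room for distant summits, and how much of the closeness this gives was not tested.

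No list stood off to one side of the others. The signed distance of a list's summit from the median of the other 5 had a median of 0 bp for PtrC2H2ZF1, PtrC2H2ZF2, PtrARF5a, PtrBLH and PtrCORONA and of 1 bp for PtrNAC127. Without regard to sign, the median was 5 bp for PtrCORONA, 6 bp for PtrC2H2ZF1, PtrC2H2ZF2 and PtrNAC127, and 7 bp for PtrARF5a and PtrBLH. The PtrARF5a summit was scattered most. The middle 90% of its offsets ran from −40.45 to 40.45 bp, it was the farthest of the 6 summits in 99 regions, and it lay over 100 bp away in 15. For PtrCORONA the middle 90% ran from −17 to 26.45 bp, with 49 regions in which it was farthest and 5 in which it lay over 100 bp away. Ties for the farthest summit went to the earlier list in the order PtrC2H2ZF1, PtrC2H2ZF2, PtrARF5a, PtrBLH, PtrNAC127, PtrCORONA. PtrCORONA was therefore given no tie, which lowers its count beside the others. Gene strand was not used, so a shared shift along genes would not be seen in these signed distances.

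**Figure D1:**
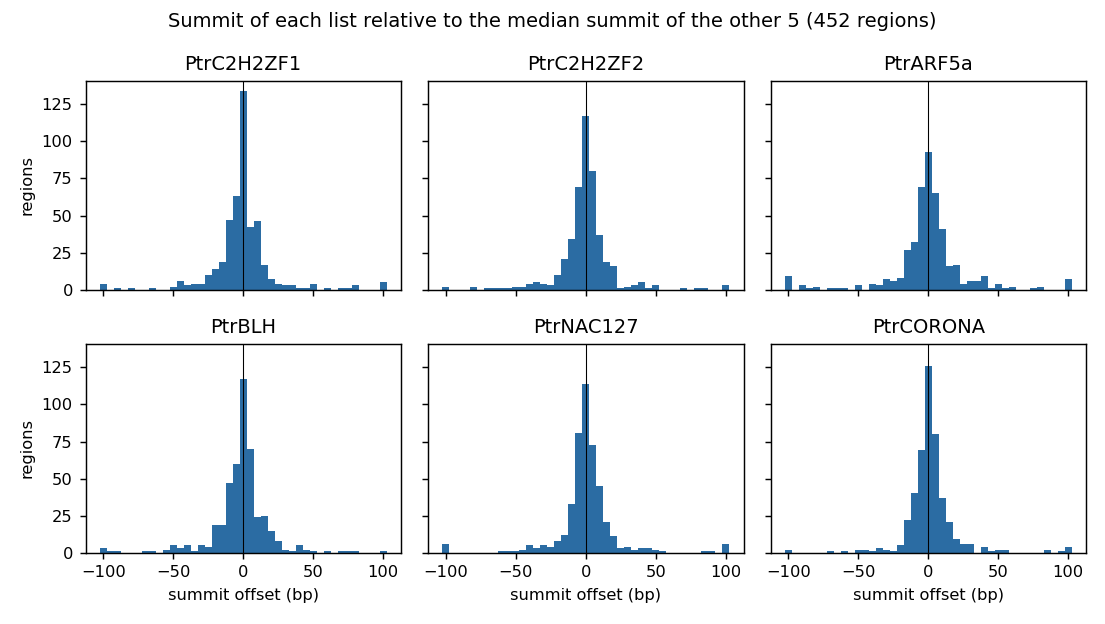
Offset in bp of each list's summit from the median of the other 5 summits (x axis) against number of regions (y axis), 1 panel per TF, for the 452 regions with 1 peak of each list. Offsets beyond 100 bp are counted in the end bins. All 6 histograms are centred on or next to 0 bp and PtrARF5a, with 15 regions beyond 100 bp, is the widest.

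Over the 15 pairs of lists, the median distance between summits in these 452 regions ran from 6 bp, for PtrC2H2ZF1 with PtrC2H2ZF2 and for PtrNAC127 with PtrCORONA, to 11 bp, for PtrARF5a with PtrBLH. The 2 summits of a pair fell on the same base in 48 regions for PtrC2H2ZF1 with PtrBLH and in 14 for PtrC2H2ZF2 with PtrNAC127, the extremes of the 15 pairs. The same distances were measured in chromosomal regions of fewer lists that held 1 peak of each member of the pair. There the median ran from 7 to 42 bp, over 20 to 556 regions a pair, and was larger in 14 of 15 pairs. The difference was 1 or 2 bp in 3 of these, namely 8 bp in common regions against 9 bp in 23 other regions for PtrC2H2ZF1 with PtrNAC127, 8 against 10 bp in 44 for PtrC2H2ZF2 with PtrNAC127, and 6 against 7 bp in 109 for PtrNAC127 with PtrCORONA. The 3 largest differences were in the pairs among PtrARF5a, PtrBLH and PtrCORONA. PtrARF5a and PtrBLH were a median of 11 bp apart in the common regions, against 42 bp in 430 regions of fewer lists. PtrARF5a and PtrCORONA were 8 bp apart, against 39 bp in 556 regions, and PtrBLH and PtrCORONA 7 bp, against 34.5 bp in 214. PtrARF5a and PtrNAC127 stood 8 bp apart in both. Regions of fewer lists held weaker peaks as well, and the part of peak strength in this difference was not tested.

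The edges of the peaks set PtrARF5a apart from the other lists more than the summits did. The start of a peak differed by a median of 2 bp between PtrC2H2ZF1 and PtrC2H2ZF2, by 4 bp between PtrNAC127 and PtrCORONA, and by 108 to 126 bp between PtrARF5a and any other list. Over the 10 pairs without PtrARF5a this median ran from 2 to 16 bp. Over all chromosomal peaks, in common regions or not, 11 whole intervals were identical between the zinc finger proteins. PtrARF5a peaks were the narrow ones, with a median width of 331 bp in the common regions where the other 5 lists had medians of 526.5 to 559.5 bp, and in 409 of 452 regions the PtrARF5a peak lay inside the peaks of all 5 others. For any other list this nesting occurred in 0 to 3 regions. The narrow width was a property of the whole PtrARF5a list, whose peaks outside the common regions had a median of 229 bp where the other lists had 346 to 488 bp.

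The closest stacking was seen on chromosome 6 from 24249661 to 24250303, where all 6 summits lay within 1 bp. The fold enrichment, which is the caller's ratio of precipitated to input signal at the summit, was there 27.5 for PtrC2H2ZF1, 29.4 for PtrC2H2ZF2, 9.40 for PtrARF5a, 12.9 for PtrBLH, 7.76 for PtrNAC127 and 10.3 for PtrCORONA. Spans of up to 2 bp occurred in 7 regions, among them chromosome 2 from 21943181 to 21943772 and chromosome 4 from 5802394 to 5802977. At the other end, the widest span among regions with 1 peak of each list was 544 bp, on chromosome 2 from 18376752 to 18378439, where the PtrARF5a summit stood 538 bp from the median of the others. The next widest, 258 bp on chromosome 17 from 15098168 to 15099343, came from summits displaced to opposite sides, with offsets of 190 bp for PtrC2H2ZF2 and −70 bp for PtrARF5a. On chromosome 5 from 24527710 to 24528924 the span was 228 bp and the lists fell into 2 positions: the summits of PtrC2H2ZF1 and PtrARF5a stood 219 and 221 bp from the median of the others, on the same side, while the remaining 4 were off by at most 10 bp.

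By median fold enrichment, peaks in the common regions were the stronger ones of every list. Fold enrichment has no common scale between libraries, so each list was set only against its own other peaks, and since a region had to pass 6 calls, the rule tends to fix this direction. The median fold enrichment over the 476 regions was 29.5 for PtrC2H2ZF1, against 4.45 over its other chromosomal peaks. For PtrC2H2ZF2 it was 30.2, against 5.52 outside. The corresponding medians were 15.0 against 6.38 for PtrARF5a, 16.8 against 6.25 for PtrBLH, and 15.0 against 6.36 for PtrCORONA. PtrNAC127 showed the smallest gap, with 12.5 in the common regions, against 9.42 outside. The other peaks of PtrC2H2ZF1 reached at most 9.61 and those of PtrC2H2ZF2 11.7, both below the lower quartile of the same list in the common regions. The ranges overlapped widely in the remaining lists. Their other peaks reached 55.1 for PtrARF5a, 49.8 for PtrBLH, 48.1 for PtrCORONA and 33.1 for PtrNAC127. The lowest values in the common regions were 4.32, 3.40, 2.73 and 1.91 in the same order, each below the median of the list's other peaks.

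**Figure D2:**
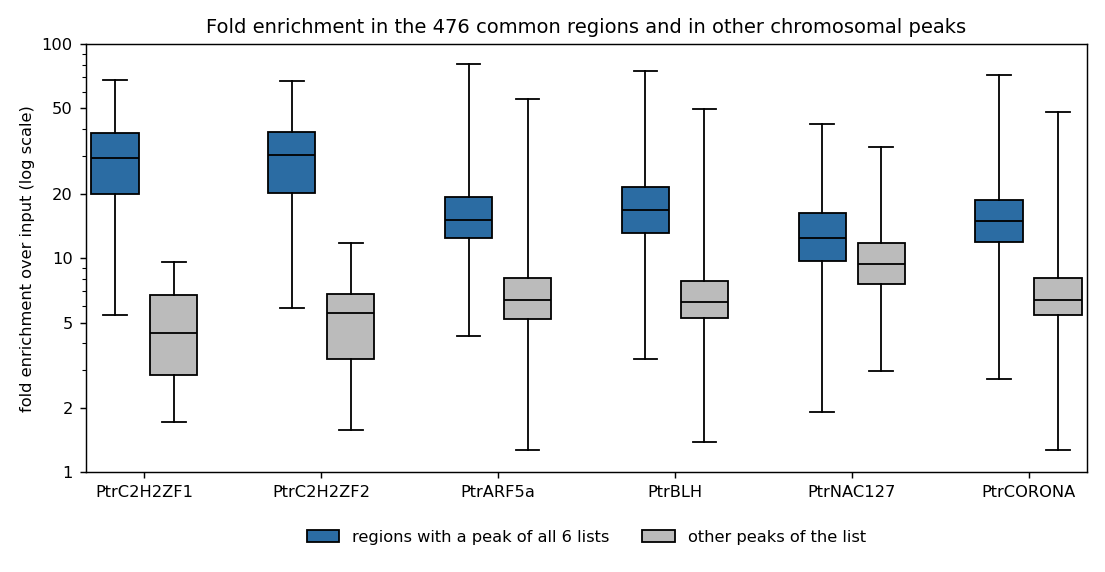
Fold enrichment over input (y axis, log scale) by TF, in the 476 common regions (blue, left of each pair, strongest peak per list and region) and in the other chromosomal peaks of the list (grey, right), with boxes for the quartiles and median and whiskers to the lowest and highest value. The blue median is above the grey one in each of the 6 lists, from 29.5 against 4.45 for PtrC2H2ZF1 to 12.5 against 9.42 for PtrNAC127.

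The strongest calls of every list were drawn almost wholly from these regions. Of the 300 chromosomal peaks with the largest −log10 q, 300 lay in common regions for PtrC2H2ZF1, 299 for PtrC2H2ZF2, PtrBLH, PtrNAC127 and PtrCORONA, and 293 for PtrARF5a. The lists themselves differed in how much they held besides. Common regions took in 481 of 535 chromosomal PtrC2H2ZF1 peaks (89.9%), 480 of 567 for PtrC2H2ZF2 (84.7%), 481 of 636 for PtrNAC127 (75.6%), 483 of 979 for PtrBLH (49.3%), 479 of 1109 for PtrCORONA (43.2%) and 511 of 5268 for PtrARF5a (9.70%). Ordered by fold enrichment instead, the top 400 peaks lay in common regions in 400 cases for PtrC2H2ZF1 and PtrC2H2ZF2, 378 for PtrBLH, 361 for PtrCORONA, 334 for PtrNAC127 and 272 for PtrARF5a. By −log10 q, the top 400 of PtrARF5a included 380 and that of PtrNAC127 396 peaks in common regions, so these lists had more peaks of high fold enrichment than of high −log10 q elsewhere.

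Within the 476 regions the lists ordered the sites almost alike by −log10 q and less so by fold enrichment. Spearman's rho across the regions ran from 0.84 (PtrC2H2ZF2 with PtrARF5a) to 0.99 (PtrC2H2ZF1 with PtrC2H2ZF2) over the 15 pairs for −log10 q. For fold enrichment it was 0.98 between PtrC2H2ZF1 and PtrC2H2ZF2, 0.85 between PtrNAC127 and PtrCORONA and also between PtrARF5a and PtrCORONA, and 0.70 between PtrARF5a and PtrNAC127. The zinc finger lists stood apart from those 3, with rho of 0.21 to 0.35 in the 6 pairs between them. PtrBLH was related to both sides, with 0.72 to PtrC2H2ZF1, 0.71 to PtrC2H2ZF2, 0.75 to PtrCORONA, 0.70 to PtrARF5a and 0.49 to PtrNAC127. These are descriptions across regions, which share the genome and the control chromatin and are not independent.

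**Figure D3:**
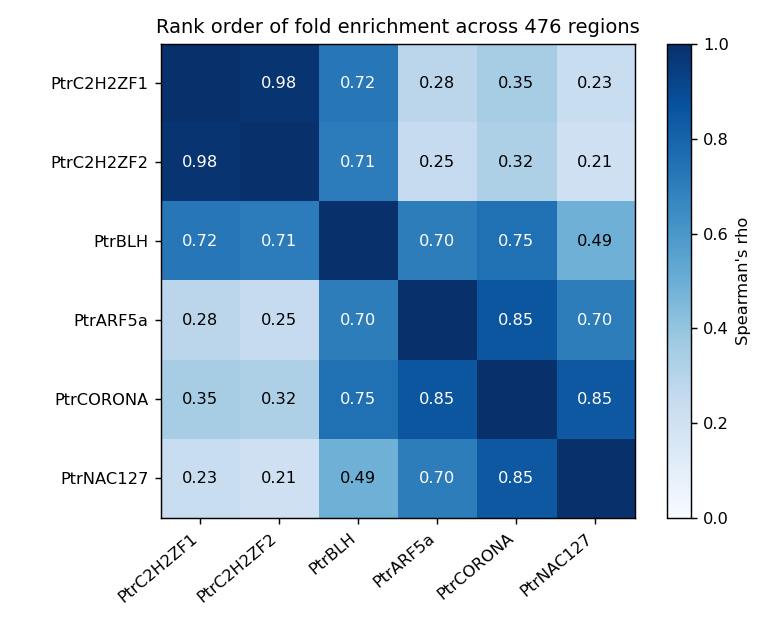
Spearman's rho of fold enrichment across the 476 common regions for the 15 pairs of lists, each cell of the grid being 1 pair and its colour and number the value of rho. The pair of zinc finger proteins reaches 0.98 and the lowest values, 0.21 to 0.35, all pair a zinc finger protein with PtrARF5a, PtrNAC127 or PtrCORONA.

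Between either zinc finger list and PtrARF5a, PtrBLH, PtrNAC127 or PtrCORONA, disagreement in 1 direction was nearly absent. When each list was cut into 4 sets of 119 regions by fold enrichment, 41 regions were in the highest set of both PtrC2H2ZF1 and PtrNAC127 and 35 in the lowest set of both. No region (0 of 476) was in the highest set of PtrC2H2ZF1 and the lowest of PtrNAC127, whereas 34 were in the lowest set of PtrC2H2ZF1 and the highest of PtrNAC127. The same held for PtrC2H2ZF1 with PtrCORONA, with 0 regions one way and 29 the other, with PtrARF5a, with 2 and 35, and with PtrBLH, with 0 and 15. For PtrC2H2ZF2 the numbers were 0 and 32 with PtrNAC127, 0 and 30 with PtrCORONA, 3 and 36 with PtrARF5a, and 0 and 17 with PtrBLH. Unrelated lists would spread each set of 119 regions evenly over the 4 sets of the other list. The numbers from 29 to 36 are near that even share, and the 15 and 17 with PtrBLH are below it. The numbers from 0 to 3 are far below it, so the pattern is a lack of regions one way and no surplus the other. Between the zinc finger lists, 108 regions were shared in the highest and 108 in the lowest set.

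The following regions were picked after their values had been seen. The largest fold enrichment of PtrARF5a (80.4), of PtrBLH (74.7) and of PtrCORONA (71.9) all fell on chromosome 3 from 18721839 to 18722827. PtrC2H2ZF1 had 43.1, PtrC2H2ZF2 34.8 and PtrNAC127 26.8 there. On chromosome 9 from 11800939 to 11801678, PtrARF5a had 55.8, PtrCORONA 47.5, PtrBLH 41.1 and PtrNAC127 20.9, while PtrC2H2ZF1 with 7.86 and PtrC2H2ZF2 with 8.84 were near the bottom of their range. On chromosome 12 from 1082441 to 1083033, both zinc finger proteins had 67.4, the largest value of PtrC2H2ZF2 and, after 68.2 on chromosome 15 from 6328105 to 6330866, the next largest of PtrC2H2ZF1. That region was 1 of 10 that ranked among the top 48 of all 6 lists by fold enrichment, and 364 regions were in the top 48 of none.

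Stronger regions were longer, and the strongest had the most spread summits. Regions were ordered by their mean rank of −log10 q over the 6 lists, rank 1 being the largest, and cut into 4 sets of 119. From the strongest to the weakest set, the median length was 771, 592, 549 and 532 bp, and the median core 498, 342, 294 and 274 bp. Length and −log10 q come from the same peaks and went together in every list, with rho from 0.67 to 0.76 across the regions. The median span in regions with 1 peak of each list was 54.5, 15, 20 and 26 bp in that order, and spans over 100 bp numbered 23, 7, 3 and 7. PtrARF5a was the list that moved most, since its median unsigned offset was 26 bp in the strongest set and 5 to 7 bp in the others, while the other 5 lists stayed between 4 and 8.5 bp in every set.

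Fold enrichment followed this order in some lists only. The median of PtrC2H2ZF1 was 41.7, 34.5, 25.9 and 15.7 from the strongest to the weakest set, that of PtrC2H2ZF2 43.7, 35.2, 25.8 and 16.0, and that of PtrBLH 20.2, 18.2, 16.9 and 10.5. The medians of PtrARF5a were 15.8, 14.5, 15.5 and 14.0, those of PtrNAC127 11.7, 12.0, 13.4 and 12.8, and those of PtrCORONA 15.0, 15.3, 16.5 and 13.5, which shows no steady fall. Across the regions of 1 list, rho between fold enrichment and −log10 q was 0.88 for PtrC2H2ZF1, 0.89 for PtrC2H2ZF2 and 0.63 for PtrBLH, but 0.31 for PtrARF5a, 0.24 for PtrCORONA and 0.11 for PtrNAC127. Both measures are taken from the same reads, and the reads that each library kept after filtering are not given in the sources used here.

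By mean rank of −log10 q, the leading regions were chromosome 2 from 18359106 to 18363730 and chromosome 5 from 24527710 to 24528924, both with a mean rank of 4.7. On chromosome 5, −log10 q was 587.8 for PtrC2H2ZF1, 640.3 for PtrC2H2ZF2, 254.0 for PtrARF5a, 428.1 for PtrBLH, 402.4 for PtrNAC127 and 449.8 for PtrCORONA, and the values of PtrNAC127 and PtrCORONA were the largest of their lists in any common region. The poorest mean rank, 465.7, belonged to chromosome 9 from 1730034 to 1730548. There −log10 q was 11.1 for PtrC2H2ZF1, 14.4 for PtrC2H2ZF2, 15.3 for PtrARF5a, 7.77 for PtrBLH, 15.6 for PtrNAC127 and 21.9 for PtrCORONA, so that all 6 lists were weak together. The shortest region, of 503 bp on chromosome 18 from 1434900 to 1435402, had the next poorest mean rank, 465.0.

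The lowest of the 6 −log10 q values in a region was 4.39 at the lowest, 70.0 at the median and 299.3 at the highest. Over all regions it came from PtrBLH in 195, PtrNAC127 in 177, PtrARF5a in 57, PtrC2H2ZF1 in 19, PtrC2H2ZF2 in 16 and PtrCORONA in 12, a tally that sets −log10 q of different libraries side by side. In the 5 regions nearest to the edge of the rule, those with the smallest lowest −log10 q, it came from PtrC2H2ZF1 in 4 and from PtrBLH in 1. Just inside the rule lay chromosome 5 from 10002569 to 10003161, where −log10 q was 4.39 for PtrC2H2ZF1 and 10.7 for PtrC2H2ZF2, against 84.2 for PtrARF5a, 33.9 for PtrBLH, 29.4 for PtrNAC127 and 52.9 for PtrCORONA. Next to it by this measure was chromosome 2 from 11887088 to 11887702, where −log10 q was 5.51 for PtrC2H2ZF1, 19.96 for PtrC2H2ZF2, 94.6 for PtrARF5a, 9.76 for PtrBLH, 119.2 for PtrNAC127 and 82.3 for PtrCORONA. By fold enrichment, both regions were below the lower quartile of the zinc finger lists and above the upper quartile of PtrARF5a and PtrCORONA, and the one on chromosome 2 had the largest PtrNAC127 value of all common regions, 42.3.

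Just outside the rule were the 37 chromosomal regions with peaks of 5 lists. The missing list was PtrBLH in 16, PtrNAC127 in 12, PtrC2H2ZF1 in 7 and PtrC2H2ZF2 in 2, and never (0 of 37) PtrARF5a or PtrCORONA. PtrARF5a and PtrCORONA were the lists with the most chromosomal peaks, 5268 and 1109, and the part of list length in this tally was not tested. Several of the regions without PtrNAC127 lay close together on chromosome 13, between 14784992 and 14869837. The median length of the 37 regions was 531 bp and the median span of their 5 summits 37 bp. The median −log10 q ran by list from 11.1 for PtrC2H2ZF1, over 30 regions, to 24.1 for PtrNAC127, over 25. A list has no value where it is missing, so these medians come from different sets of regions and are not on one footing. The strongest of the 37 regions by mean −log10 q, 41.2, lay on chromosome 1 from 13381866 to 13382422. It had no PtrC2H2ZF1 peak, while PtrARF5a had 96.8 there. A list without a peak in a region may still have had signal below the caller's threshold.

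Along the chromosomes, the common regions were mostly solitary. The distance from the end of a region to the start of the next was 44 bp at the lowest, 533742 bp at the median and 5700602 bp at the highest over 457 gaps. Gaps under 10 kb made up 25 of 457 (5.47%, interval 3.57 to 7.97%), against 55 of 822 (6.69%) between regions of 2 to 5 lists and 1223 of 4874 (25.1%) between all regions of fewer than 6 lists. The more regions a class has, the closer they must lie, so these shares are not on one footing. Regions under 10 kb apart were joined into 19 groups, 17 with 2 regions, 1 with 3 and 1 with 7. The groups held 44 regions, and 432 stood alone. When merged regions of any list number were considered, the nearest neighbour of a common region was a median of 24797 bp away, and 133 of 476 (27.9%) had one within 10 kb.

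The largest group lay on chromosome 2 from 18343657 to 18385286, a stretch of 41630 bp with 7 common regions that covered 70.1% of it and held 52 peaks. Its regions were long, 1445, 8688, 2608, 4625, 3892, 1688 and 6235 bp in order of position, and 5 of the 12 regions over 2 kb were among them. Taking for each list the peak with the largest −log10 q in each region, fold enrichment along the stretch ran from 33.2 to 50.8 for PtrC2H2ZF1, from 36.4 to 54.0 for PtrC2H2ZF2, from 7.91 to 15.6 for PtrARF5a, from 14.8 to 24.1 for PtrBLH, from 8.05 to 14.0 for PtrNAC127 and from 10.5 to 18.7 for PtrCORONA. By these peaks, the region of 3892 bp had the lowest value in all lists but PtrBLH, for which it had 14.9 and the region of 6235 bp 14.8. The longest region of the set, 8688 bp from 18345722 to 18354409, had a core of 7995 bp. Its span was 6311 bp by the same choice of peaks. The PtrARF5a summit stood 6303 bp and the PtrNAC127 summit 4316 bp from the median of the others. Another PtrNAC127 peak there had a −log10 q of 311.2, against 334.2. Its summit lay 3430 bp from the start of the group, beside 3428 bp for PtrCORONA. The PtrNAC127 summit used lay at 7669 bp. Further peaks of PtrC2H2ZF1, PtrBLH and PtrCORONA had summits at 7644, 8239 and 8201 bp.

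**Figure D4:**
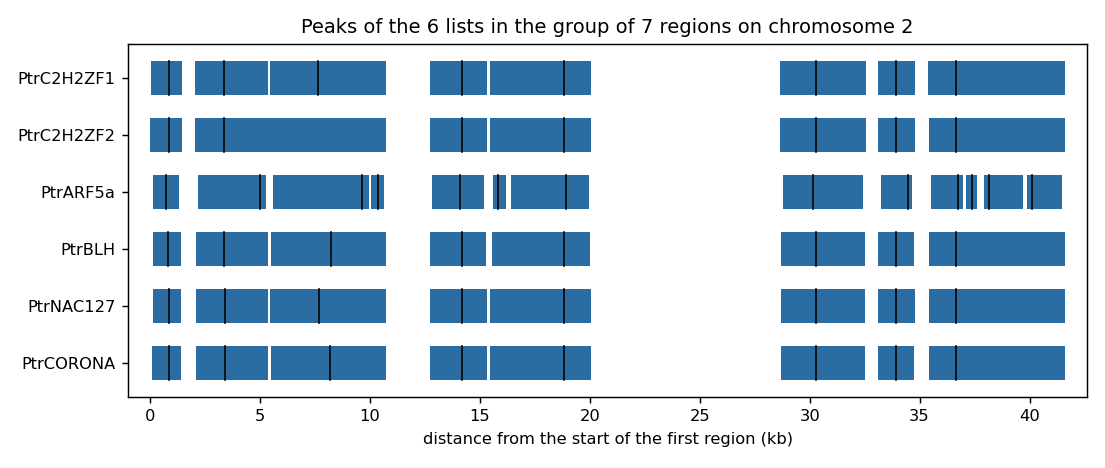
Map of the group of 7 common regions on chromosome 2, with distance in kb from the start of the group (x axis) and 1 row per TF. Blue bars are peaks and black ticks their summits. The peaks of the 6 lists cover nearly the same 7 blocks. PtrARF5a breaks some of them into several peaks, and the block of 8688 bp is broken in every list but PtrC2H2ZF2.

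On chromosome 7, a group of 3 common regions from 6125023 to 6129798 left only 44 and 121 bp between its members and covered 96.5% of 4776 bp. By the peak with the largest −log10 q of each list, the middle region, of 1560 bp, had a fold enrichment of 54.3 for PtrC2H2ZF1, 53.7 for PtrC2H2ZF2, 43.6 for PtrARF5a, 44.5 for PtrBLH, 40.6 for PtrNAC127 and 41.6 for PtrCORONA. The first region, of 758 bp, had 9.73, 10.7, 9.58, 8.51, 13.6 and 14.0 for the lists in the same order, and the last one, of 2293 bp, had 25.1, 28.1, 34.8, 22.3, 35.5 and 31.0. The middle region was thus the highest in all 6 lists. Other long regions lay on chromosome 15 from 6320740 to 6327937 (7198 bp), chromosome 14 from 16976961 to 16982103 (5143 bp), chromosome 13 from 9588836 to 9593118 (4283 bp) and chromosome 9 from 987524 to 991768 (4245 bp). What these stretches contain was not analysed here, since no gene or repeat annotation of the build was used.

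Every chromosome held common regions. Chromosome 1 had the most, 61, and chromosome 19 the fewest, 9. Relative to length, taken as the largest peak end of a chromosome, the density was highest on chromosome 2 with 1.83 regions per Mb, then chromosome 9 with 1.78 and chromosome 15 with 1.64, and lowest on chromosome 19 with 0.57. Counted with each group of neighbours as 1, chromosome 2 had 1.55 per Mb, chromosome 9 1.62 and chromosome 15 1.58, so the lead of chromosome 2 rested on its group of 7. As a share of all merged regions of a chromosome, common regions made up 4.44% on chromosome 8 at the lowest and 15.3% on chromosome 17 (22 of 144) at the highest, beside 8.87% over all chromosomes. Most merged regions held PtrARF5a peaks only, so these shares depend on that list as well. Across the 19 chromosomes, the number of common regions and the length had Pearson's r = 0.861 and Spearman's rho = 0.772, and without chromosome 1 r = 0.681 and rho = 0.731. When each chromosome was cut into 10 equal parts, the parts held 36 to 51 common regions each, the lowest number being in the first part. As a share of the merged regions of the part, this was 7.45% (36 of 483) in the first. The lowest share was 7.36% (48 of 652) in the ninth part and the highest 10.8% (51 of 473) in the fourth. Pooled over the 19 chromosomes, the regions thus showed no strong concentration in any of the 10 parts. A concentration at different places on different chromosomes would not be seen in this way.

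**Figure D5:**
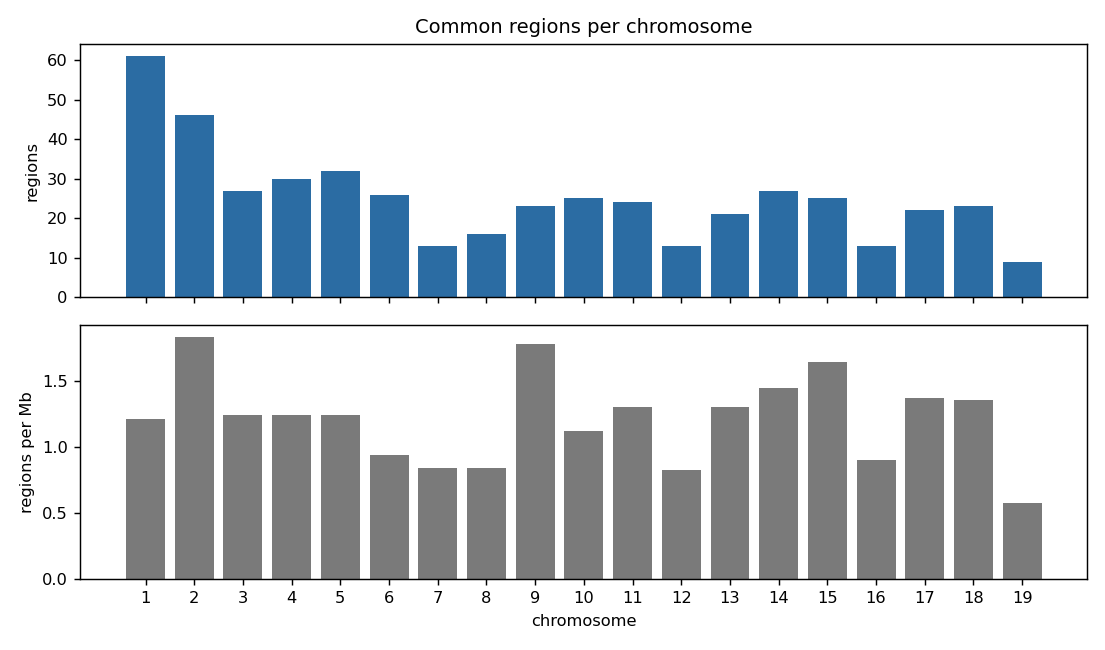
Number of common regions (upper panel, y axis) and regions per Mb (lower panel, y axis) for chromosomes 1 to 19 (x axis), 1 bar per chromosome, with length taken as the largest peak end. Counts run from 61 on chromosome 1 to 9 on chromosome 19, and density from 1.83 per Mb on chromosome 2 to 0.57 on chromosome 19.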

How the data were processed

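ChIP-seq had been done on leaves of Populus tremula × Populus alba, with 1 library for each of 6 TFs, so no replicate error could be given and no test was made. The authors used Trimmomatic for trimming and Bowtie2 for mapping to the genome of the same hybrid, removed duplicates and mapping qualities under 30 through SAMtools, and ran MACS2 on each library to call peaks (version 2.1.0, from the submitters' processing notes). Sequencing yield is stated by the authors only as 1 approximate raw read number common to the samples. The reads kept per library after filtering, other tool versions and the build's version are not given in the sources used here. The deposited lists give for each peak its position, a whole-number score (not used), a fold enrichment (a ratio to input), the −log10 of a p-value (not used), the −log10 of a q-value and the distance of the summit from the start.

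Intervals sharing at least 1 bp were merged, and chromosomal regions with peaks of all 6 lists were kept. The regions, the rule and the measures were chosen with earlier results of these data known. Positions are those of the lists, counted from 1. Distances between neighbours run from end to start, and neighbours under 10 kb apart form a group. Regions named in the text were taken from the 10 longest, the 5 best and 5 poorest by mean rank of −log10 q, the 5 smallest and 5 largest spans with 1 peak of each list, the 3 groups with most regions and the 5 with the smallest lowest −log10 q, or some of these. Exceptions are stated in the text, and the strongest region of 5 lists was also named after its values were seen. Shares have exact (Clopper-Pearson) 95% binomial intervals. Alternatives were a stricter −log10 q, another merging rule, a required core, 5 of the 6 lists, another choice of summit and regions with 1 peak of each list only. Merging, lengths, cores and spans were tested on simulated data, while gaps were not. Tables were made in pandas 2.3.3 and numpy 2.4.6 under Python 3.11.15, intervals in scipy 1.17.1 and figures in matplotlib 3.10.9. Scaffold regions, sequences, motifs and genes were not analysed here.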

Additional observations from a re-analysis of the deposited data

How the results depend on the processing

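With only peaks of −log10 q of at least 10, the number of common regions was 456, with merging across gaps of up to 100 bp it was 475, and with a base covered by all 6 lists required it was 476. When 1 list was left out and the other 5 had to be present, the number was 476 to 492, the highest value being without PtrBLH. Over all these alternatives the median length was 578.5 to 584.5 bp, the share of regions with a core 99.8 to 100%, and the median distance to the next region 518826 to 557030 bp. The median span was 23 bp in the main analysis, fell to 20 bp without PtrARF5a and to 20 bp without PtrBLH, and was 21 to 23 bp under the other alternatives. Fewer summits cannot give a larger span in the same region, so a part of this follows from the leaving out itself. No paired analysis was possible because each TF had 1 library and no test was made. The reads kept per library after filtering are not given in the sources used here, and a region without a peak of some list may hold signal too weak to be called. This bears most on the 37 regions of 5 lists.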
